A study of Mus musculus with 4 samples.

Results

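The colony-stimulating factor (CSF) receptors, their ligand Csf1 and the transcription factors of the macrophage lineage were followed in mouse bone marrow-derived macrophages that met necrotic fat. They comprise 9 genes taken by symbol, out of 17013 genes listed by the authors: the ligand gene Csf1, the receptor genes Csf1r, Csf2ra, Csf2rb and Csf3r, and the factor genes Spi1, Cebpa, Cebpb and Maf. The cells came from wild-type bone marrow and were grown with recombinant M-CSF, the protein that Csf1 encodes. They were then held on porous inserts for 24 h in medium with aNBF, artificial necrotic bone fluid, made by freezing and thawing bone and marrow. Below the inserts lay either the fat control medium (Con, labelled FAT_con, the middle layer of freeze-thawed abdominal fat) or the high-fat-containing medium (Fat, labelled FAT_high, its top layer). The contrast is therefore between 2 layers of the same kind of fat preparation, and aNBF was present in both. RNA was sequenced in 4 libraries, 2 from each medium, and the labels do not say whether replicates came from separate mice or cultures, so p-values cover only the spread between these libraries.

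M-CSF binds the receptor tyrosine kinase encoded by Csf1r and keeps macrophages alive. GM-CSF binds a pair of chains, the α chain from Csf2ra and the shared β chain from Csf2rb, and signals through JAK2 and STAT5. G-CSF acts through the receptor encoded by Csf3r, best known from neutrophils. PU.1, the product of Spi1, and the C/EBP factors establish the myeloid program and drive the CSF receptor genes, and c-Maf, the product of Maf, acts in mature macrophages.

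None of the 9 genes was called changed between Fat and Con, and the transcripts of the lineage factor PU.1 and of the β chain of the GM-CSF receptor lay at nearly the same level in both media. The estimated differences ran from a log2 fold change of -0.32 for Csf3r to 0.39 for Cebpb. Beside this, 7 of 36 genes of CSF receptor signalling were called lower in Fat by limma, and 0 higher. The 7 were Jak2, Pik3cd, Fgr, the phosphatase gene Ptpn6 and the feedback genes Cish, Socs2 and Socs3. The lineage factor gene Irf8 was called lower too. With the length-scaled TPM values Irf8, Ptpn6 and Pik3cd were still called, but Jak2, Fgr, Cish, Socs2 and Socs3 were not. Each library held between 33573852 and 40785872 reads on listed genes, recovered as whole multiples of the value of a single read, and every member had between 1238 and 62799 reads. Levels are given as CPM (reads relative to the library total, scaled by the authors) for comparisons between media, and as TPM, which is also scaled by gene length, for comparisons between genes. The media were compared with limma on log2(CPM + 0.1) over 12470 genes that reached 0.5 CPM in 2 or more libraries, and a gene was called at a Benjamini-Hochberg adjusted p-value under 0.05. In this test 9.0% of genes were called, with 5.0% lower and 3.99% higher in Fat. With the TPM values 58.2% of the calls were higher, against 44.4% with CPM. All 9 members passed the filter and 0 of 9 were called by limma, while 2 of 9, Csf1r and Csf3r, had an unadjusted p-value under 0.05, as did 24.1% of all genes tested. On the recovered reads, edgeR's quasi-likelihood test also called 0 of 9 (3 of 9 at an unadjusted p-value under 0.05) and 9.13% of all genes. edgeR's exact test called Csf3r alone and 13.2% of all genes, and DESeq2 called Csf3r alone and 9.21%.

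Ordered by TPM, the receptor for M-CSF stood far above the other members. Csf1r was at 1046 and 907 TPM in Con and at 880 and 844 TPM in Fat, above 99.1% of the genes tested. Spi1 followed at 349 and 387 TPM in Con and at 357 and 399.8 TPM in Fat. Csf2rb was at 310.5 and 305 TPM in Con and at 321 and 281 TPM in Fat. Csf2ra was lower than Csf2rb in Con, at 212 and 230.3 TPM, but its Fat values of 228 and 344 TPM enclosed those of Csf2rb. Cebpa stood just below Csf2ra, at 198.5 and 198.4 TPM in Con and at 176 and 194 TPM in Fat. The other members formed a lower group. Csf1 was at 61.4 and 60.6 TPM in Con and 58.9 and 61.3 TPM in Fat, inside the Con range of Csf3r (51.0 to 63.8 TPM) and the Fat range of Cebpb (55.9 to 88.5 TPM). In Con, the range of Csf3r enclosed the values of Csf1 and those of Cebpb (52.6 and 52.2 TPM), while Csf1 lay above Cebpb in both libraries. Maf, at 40.9 and 50.8 TPM, was the lowest. In Fat, Csf3r (45.3 and 48.2 TPM) and Maf (40.7 and 45.3 TPM) touched within the rounding of these values.

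**Figure D1:**
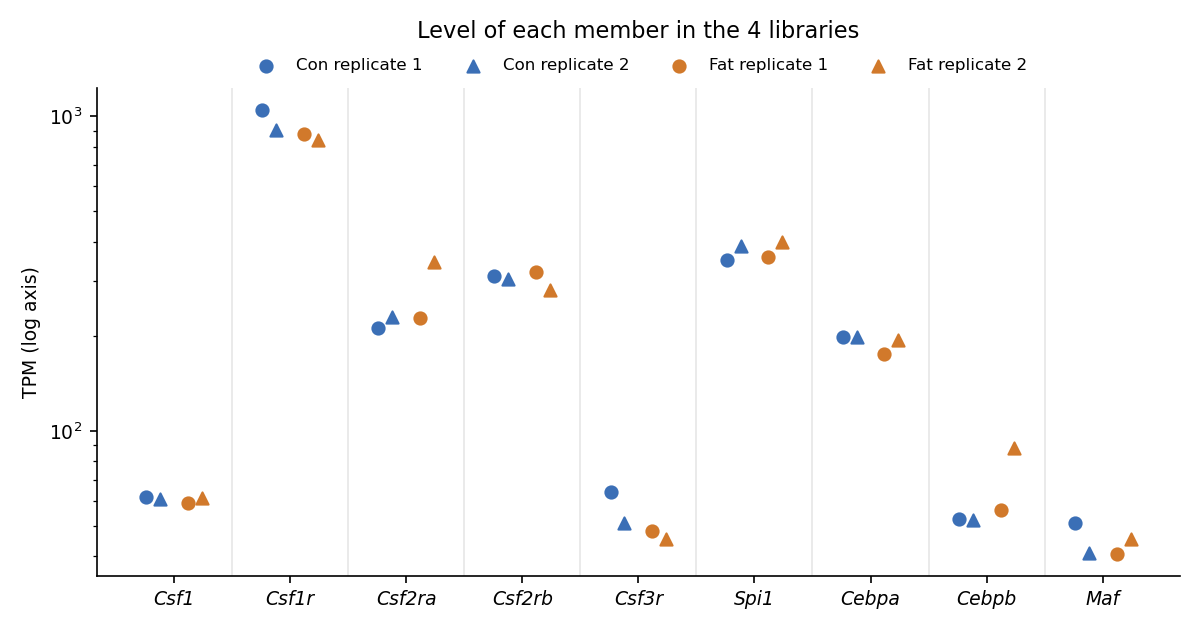
TPM of each member (log axis) in Con replicates 1 and 2 (blue) and Fat replicates 1 and 2 (orange), each point being 1 library. Csf1r lies highest in all 4 libraries, at 844 to 1046 TPM, and Fat replicate 2 stands above the other libraries for Csf2ra and Cebpb.

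The ligand gene showed no call and a narrow interval. Csf1 was at 124 and 125 CPM in Con and at 118 and 122 CPM in Fat. Both Fat libraries lay just under both Con libraries, and the log2 fold change was -0.05 (standard error 0.05, 95% interval -0.18 to 0.07, adjusted p = 0.587). Adipocytes and stromal cells are known sources of M-CSF, so their markers were read in the same libraries. Of 15 adipocyte markers, 6 passed the filter, with 4 estimates above 0 and 2 below. Of these 6, 3 were called higher in Fat (Cidec, Plin4 and Car3) and 0 lower. Over all genes tested, 3.99% were called higher and 5.0% lower. The defining markers Adipoq and Lep had 0 reads in both Con libraries. In Fat replicates 1 and 2 there were 28 and 14 reads for Adipoq and 30 and 18 for Lep. The adipocyte list summed to between 7416 and 8620 CPM in Con and between 8820 and 8928 CPM in Fat, most of it Lpl, which macrophages also express. Of 9 tested stromal markers, Vcam1 was called higher and Dcn lower, where 9.0% of all genes tested were called in either direction. Of the 9 estimates, 7 were below 0 and 2 above, with a median log2 fold change of -0.21. The list summed to 678 and 701 CPM in Con and to 581 and 731 CPM in Fat. The part of either cell type in the Csf1 level was not tested.

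The M-CSF receptor gene lay lower in Fat without reaching a call. Csf1r was at 1852 and 1638 CPM in Con and at 1539 and 1477 CPM in Fat, so the groups did not overlap, but the Con libraries differed from each other by more than the Fat libraries did. Its log2 fold change was -0.21 (standard error 0.09, 95% interval -0.41 to -0.01, adjusted p = 0.19). The unadjusted p-value was 0.0433, and the estimate lay between -0.30 and -0.12 when single libraries were dropped. Csf1r transcripts outnumbered those of Csf1 by 15.0 to 17.0 times in Con and by 13.8 to 14.9 times in Fat, as ratios of TPM. Of 2307 stretches of 75 bases from the Csf1r transcripts, 6.98% also matched Hmgxb3, which overlaps it on the other strand and was at between 25.9 and 29.4 CPM. In bulk RNA, fewer cells of a type and less RNA per cell cannot be told apart.

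The 2 chains of the GM-CSF receptor differed in pattern. Csf2ra, the α chain, was at 179 and 198 CPM in Con and at 190.4 and 287 CPM in Fat. Fat replicate 1 lay between the Con libraries and Fat replicate 2 far above all others, so the groups overlapped. The log2 fold change was 0.31 (standard error 0.17, 95% interval -0.08 to 0.70, adjusted p = 0.311). Without Fat replicate 1 it was 0.60, and without Fat replicate 2 it was 0.01. The gap between the Fat libraries, 0.59 on the log2 scale, was matched or exceeded by 1.07% of the 9760 genes whose mean reached 5 CPM. Over all genes tested, the Fat libraries differed no more from each other than the Con libraries did: their variance was 13.0 times that of read counting alone for the Fat replicates and 13.2 times for the Con replicates.

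Csf2rb, the shared β chain, was at 676 and 677 CPM in Con and at 690.0 and 606 CPM in Fat. The Con values fell between the Fat values, and the log2 fold change was -0.07 (standard error 0.08, 95% interval -0.24 to 0.11, adjusted p = 0.653). Within each library, the TPM of Csf2ra was 0.683 and 0.756 times that of Csf2rb in Con and 0.711 times in Fat replicate 1, but 1.22 times in Fat replicate 2. Mice carry a close copy of the β chain, Csf2rb2, whose product serves the IL-3 receptor. Csf2rb2 was at 505 and 506 CPM in Con and at 464 and 411 CPM in Fat, below both Con libraries but not called (log2 fold change -0.21, 95% interval -0.38 to -0.04, adjusted p = 0.119). Summed over both genes, the level was 1181 and 1182 CPM in Con and 1154 and 1017 CPM in Fat.

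The copies are so alike that short reads cannot always separate them, and 2 pairs of coding stretches, each as long as a read, are printed to show this. Over 2626 aligned coding bases of the GENCODE M21 transcripts (GRCm38, chromosome 15), 95.4% were identical, and 22.5% of 1490 windows of 75 bases lying in 1 exon held no difference. Allowing 2 mismatches, 27.6% of the stretches of all Csf2rb transcripts and 38.2% of those of Csf2rb2 also matched another gene, mostly each other. How reads with several matches were counted is not given in the sources used here, so the division of reads between these 2 genes is uncertain. Csf2rb also contains Mir7676-2, listed at 12.9 to 15.8 CPM. The earliest identical window, in exon 7 of both genes, lies at chr15:78341391-78341465 on the plus strand in Csf2rb and at chr15:78291844-78291918 on the minus strand in Csf2rb2, and a read from it fits both. The window with the most differences, 14, lies in exon 4, at chr15:78338905-78338979 on the plus strand and chr15:78294352-78294426 on the minus strand. Capitals mark the bases at which the genes differ.
Csf2rb and Csf2rb2, identical window: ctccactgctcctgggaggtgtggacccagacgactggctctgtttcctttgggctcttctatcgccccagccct
Csf2rb, most different window: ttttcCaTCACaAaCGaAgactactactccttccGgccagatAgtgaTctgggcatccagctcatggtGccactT
Csf2rb2, most different window: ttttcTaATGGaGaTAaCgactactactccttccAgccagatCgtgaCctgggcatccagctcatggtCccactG

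The gene of the G-CSF receptor came nearest to a call. Csf3r was at 118 and 96.1 CPM in Con and at 88.0 and 82.8 CPM in Fat. Both Fat libraries lay below both Con libraries, though the Con libraries were farther apart than the lower of them was from Fat replicate 1. The log2 fold change was -0.32 (standard error 0.10, 95% interval -0.54 to -0.10, adjusted p = 0.087). The adjusted p-value was 0.0792 by edgeR's quasi-likelihood test, 0.0258 by its exact test and 0.0279 by DESeq2. Without Con replicate 2 the log2 fold change was -0.47, and without Con replicate 1 it was -0.17. Neutrophils and their precursors are the richest known source of Csf3r transcripts, and 15 of 16 markers of these cells were listed, at a sum of 973 and 909 CPM in Con and 837 and 829 CPM in Fat. Among the 14 tested, 1 was called lower, Mmp8 (neutrophil collagenase), where 5.0% of all genes tested were called lower. Of the 14 estimates, 10 were below 0 and 4 above. Their median log2 fold change was -0.10, against 0.01 over all genes tested. The granule genes Mpo and Elane were low and not called, and other markers of the list carried nearly all of its sum. Mpo was at 2.30 and 1.68 CPM in Con and 1.21 and 0.683 CPM in Fat. Elane was at 0.914 and 0.853 CPM in Con and at 0.723 and 0.366 CPM in Fat. The part of such cells in the Csf3r level was not tested. By sequence, 37.9% of the Csf3r stretches matched at least 1 of 714 other genes, most often AC105061.2, which was not among the genes listed.

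**Figure D2:**
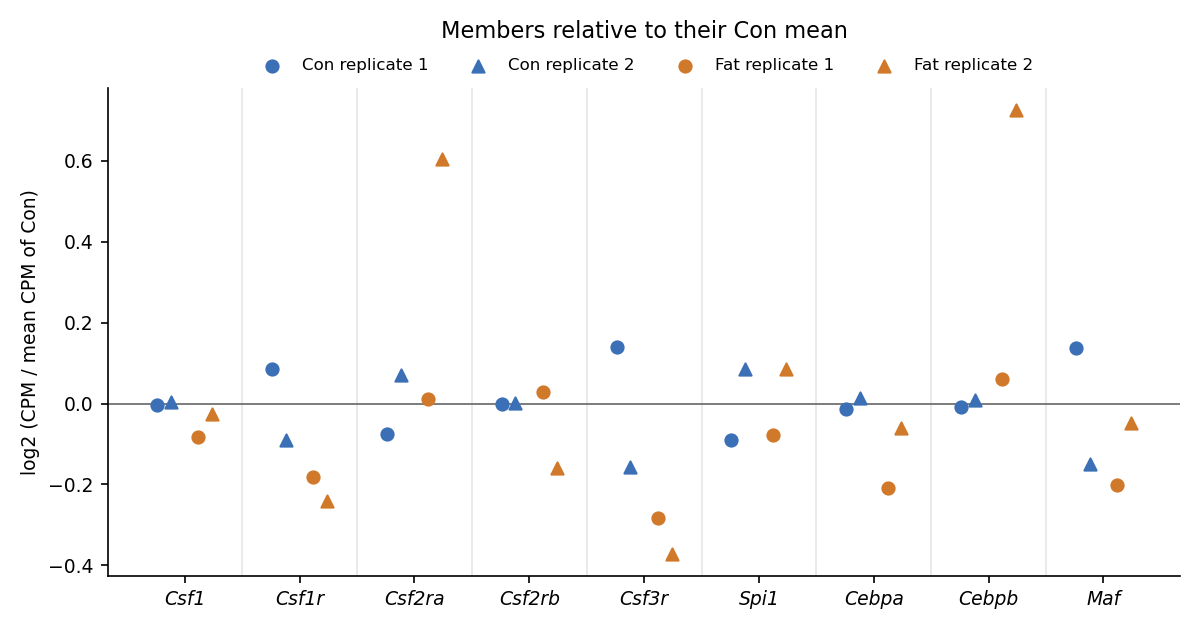
log2 of each library's CPM over the mean CPM of Con, for the 9 members, with Con in blue, Fat in orange, circles for replicate 1 and triangles for replicate 2. For Csf2ra and Cebpb only Fat replicate 2 rises far above 0, while for Csf1r and Csf3r both Fat libraries lie below both Con libraries.

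Among the lineage factors, Cebpb had the widest interval and the others lay near their Con levels. Spi1 (PU.1) was at 213 and 241 CPM in Con and at 215 and 241 CPM in Fat. The replicates differed more than the media did, and the log2 fold change of 0.01 (standard error 0.08, adjusted p = 0.973) had a 95% interval from -0.18 to 0.20, that is from 0.882-fold to 1.15-fold. Its sign turned with the scaling and with the library left out. Cebpa (C/EBPα) was at 239 and 244 CPM in Con and at 209 and 232 CPM in Fat. Both Fat libraries were below both Con libraries, with a log2 fold change of -0.13 (standard error 0.06, 95% interval -0.28 to 0.01, adjusted p = 0.253). Maf (c-Maf) was at 84.6 and 69.4 CPM in Con and at 66.9 and 74.5 CPM in Fat. The groups overlapped, and the log2 fold change was -0.12 (standard error 0.10, 95% interval -0.35 to 0.11, adjusted p = 0.526).

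Cebpb (C/EBPβ), which takes part in the response of macrophages to inflammatory stimuli, was at 36.5 and 36.9 CPM in Con and at 38.3 and 60.7 CPM in Fat. Fat replicate 1 was just above Con and Fat replicate 2 was well above it. The log2 fold change of 0.39 (standard error 0.18, 95% interval -0.03 to 0.82, adjusted p = 0.244) was the largest of the members and their least precise. Without Fat replicate 1 it was 0.72, and without Fat replicate 2 it was 0.06. The gap between the Fat libraries was 0.66 on the log2 scale, which 0.738% of the genes with a mean of 5 CPM or more matched or exceeded. Adipocytes also use C/EBPα and C/EBPβ, and the part of adipocyte RNA, whose marker values are given beside Csf1, in these levels was not tested. Of the Cebpb stretches, 17.5% also matched Tmem189, which overlaps it on the other strand at 149.7 to 185 CPM, and whether reads were counted by strand is not given in the sources used here.

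Across the 9 members, 5 showed no overlap between the media, 4 lower (Csf1, Csf1r, Csf3r and Cebpa) and 1 higher (Cebpb) in Fat. Among all genes tested, 55.6% showed no overlap, 26.2% lower and 29.4% higher, which equals the members' own share of 55.6%. The median log2 fold change of the members was -0.07, against 0.01 over all genes tested. Their half-intervals lay between 0.12 and 0.42 on the log2 scale.

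**Figure D3:**
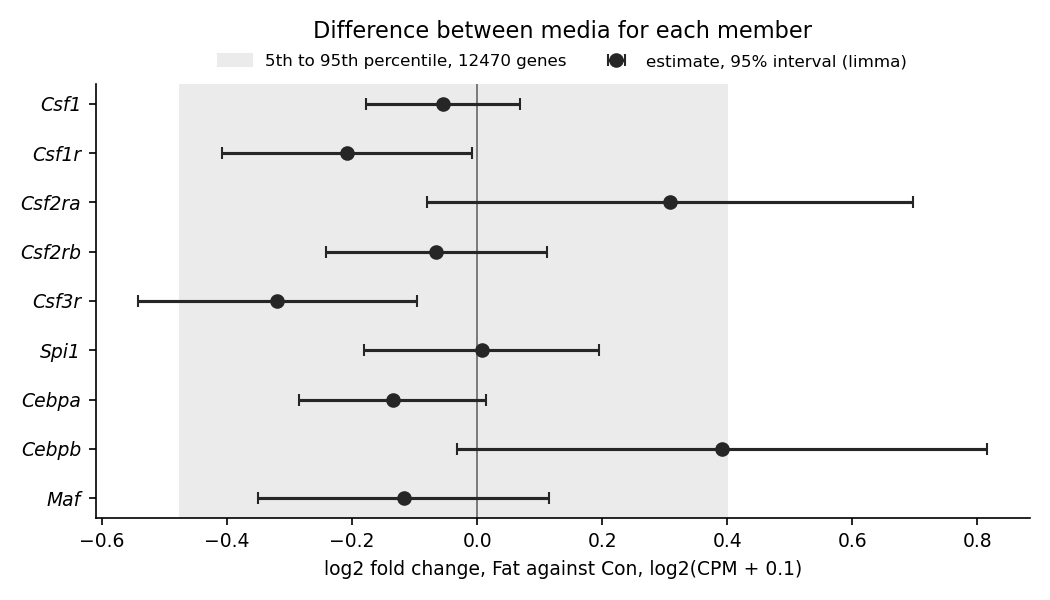
log2 fold change of Fat against Con on the log2(CPM + 0.1) scale for each member, with limma's 95% interval, over a grey band from the 5th to the 95th percentile of the 12470 genes tested (-0.48 to 0.40). All 9 estimates lie inside the band, and only the intervals of Csf1r and Csf3r leave out 0, before adjustment.

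The remaining ligands and receptors of the family gave no call either. Of 14 further genes, 12 were listed and 7 were tested, with 0 called by limma in either direction, 3 of 7 at an unadjusted p-value under 0.05 (Csf2rb2, Kit and Il5ra) and a median log2 fold change of -0.01. The largest estimates were for low genes. Kit, the stem cell factor receptor gene, was at 1.89 and 1.71 CPM in Con and at 0.991 and 1.29 CPM in Fat (log2 fold change -0.62, 95% interval -1.13 to -0.11, adjusted p = 0.132). Il5ra, the α chain of the IL-5 receptor, was at 3.30 and 2.40 CPM in Con and at 2.12 and 1.61 CPM in Fat (log2 fold change -0.58, 95% interval -1.10 to -0.07, adjusted p = 0.158). For both, the Fat libraries lay below the Con libraries. Kitl, the ligand of the stem cell factor receptor, was at 29.1 and 28.9 CPM in Con and at 28.8 and 28.9 CPM in Fat (log2 fold change -0.01, 95% interval -0.15 to 0.14). Il34, the other ligand of the M-CSF receptor, was low, at 1.20 ± 0.0728 CPM in Con and 1.21 ± 0.118 CPM in Fat (SD, n = 2 each). Il3ra, the α chain of the IL-3 receptor, was at 19.8 and 22.9 CPM in Con and at 19.7 and 30.3 CPM in Fat, with only Fat replicate 2 above Con (log2 fold change 0.19, adjusted p = 0.57). Csf2, which encodes GM-CSF, had 20 and 18 reads in Con and 14 and 2 reads in Fat, under the filter on low values, and Csf3, which encodes G-CSF, was not among the genes listed. Il3, Il5 and Flt3 had at most 4 reads in any library.

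Downstream of the receptors, the genes called by limma were all lower in Fat. Of 36 genes of CSF receptor signalling, all tested, 7 were called lower, 0 higher by limma and 29 were not called. The median log2 fold change was -0.05, with 22 estimates below 0 and 14 above. Over all genes tested, 5.0% were called lower and 3.99% higher. Cbl (log2 fold change 0.24, adjusted p = 0.0508) and Pik3cb (0.25, adjusted p = 0.0561) just missed a call higher. For each, both Fat libraries lay above both Con libraries. edgeR's exact test called 7 genes of the list lower and 2 higher. The genes that limma called lower include the kinase and phosphatase genes that act at the receptor. Jak2 was at 75.4 ± 5.31 CPM in Con and fell to 61.5 ± 3.68 CPM in Fat (± SD of 2 libraries), a log2 fold change of -0.29 (adjusted p = 0.0476). Its call was close to the threshold. It was lost in limma without the filter (adjusted p = 0.0592) and with a filter at a mean of 5 CPM (adjusted p = 0.0540). With single libraries left out, the log2 fold change of Jak2 lay between -0.37 and -0.22. Ptpn6, which encodes the phosphatase SHP-1, was at 454 ± 11.8 CPM in Con and fell to 279 ± 14.1 CPM in Fat, a log2 fold change of -0.70 (adjusted p = 0.00286). The log2 fold change was -0.41 both for Pik3cd, a catalytic subunit of PI3-kinase (adjusted p = 0.0076), and for the Src-family kinase gene Fgr (adjusted p = 0.0292). The feedback inhibitors, which cytokine receptors induce through STAT factors, formed the rest. Cish was at 10.1 and 7.49 CPM in Con and at 4.61 and 3.68 CPM in Fat (log2 fold change -1.06, standard error 0.18, adjusted p = 0.0144). For Socs2 the log2 fold change was -0.65 (adjusted p = 0.0174), and for Socs3 it was -0.60 (adjusted p = 0.0298). The transcripts of STAT5 itself were not called: Stat5a had a log2 fold change of -0.03 and Stat5b one of 0.07. Without Con replicate 1 or without Fat replicate 2, 3 of these genes were called lower, and with the TPM values 2.

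A list of genes known to respond to GM-CSF and STAT5 shares Cish and Socs2 with the signalling list. Of its 12 tested members, 5 were called lower, 1 higher and 6 were not called. Its median log2 fold change was -0.25. Over all genes tested, 5.0% were called lower and 3.99% higher. The lists were chosen with earlier results of these data known. The chemokine gene Ccl22 was at 24.0 ± 1.65 CPM in Con and at 12.5 ± 1.03 CPM in Fat, a log2 fold change of -0.93 (adjusted p = 0.00348). Pparg, a nuclear receptor that GM-CSF induces in alveolar macrophages, changed by -0.68 (adjusted p = 0.00639), and Batf3, which encodes a dendritic cell factor, by -0.57 (adjusted p = 0.0396), both as log2 fold changes. Il1rn, which encodes the IL-1 receptor antagonist, was at 180.3 ± 5.78 CPM in Con and rose to 445 ± 80.7 CPM in Fat, a log2 fold change of 1.29 (adjusted p = 0.00286). Without Fat replicate 2, 3 of these genes were called lower, and with the TPM values 2. Of the genes known to respond to M-CSF, 13 were tested, and 2 were called higher and 1 lower, with a median log2 fold change of 0.16. Fos was at 143 ± 10.1 CPM in Con and rose to 287 ± 38.2 CPM in Fat, a log2 fold change of 0.99 (adjusted p = 0.00328). For Fosl2 the log2 fold change was 0.41 (adjusted p = 0.0206), and for the cyclin gene Ccnd1 it was -0.32 (adjusted p = 0.0201). The calls higher numbered 4 without Con replicate 2 or without Fat replicate 1 and 1 without Fat replicate 2 or with the TPM values. Ccnd1 was not called without Fat replicate 1, without Fat replicate 2 or with the TPM values.

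Among the other myeloid lineage factors, 8 of 45 tested passed the test, with 6 lower and 2 higher, and 37 did not. The median log2 fold change of the 45 was 0.02, and 9.0% of all genes tested were called. Irf8, the partner of PU.1 in monocyte development, was at 217 and 234 CPM in Con and at 154 and 169 CPM in Fat. Both Fat libraries lay below both Con libraries (log2 fold change -0.48, standard error 0.07, adjusted p = 0.00825). Batf3, Tfec (-0.53, adjusted p = 0.0223), Klf4 (-0.46, adjusted p = 0.0368), Id2 (-0.38, adjusted p = 0.017) and Ikzf1 (-0.30, adjusted p = 0.0244) were the others called lower, with their log2 fold changes given in brackets. The calls higher were the small Maf factor gene Maff (0.73, adjusted p = 0.0144) and the orphan receptor gene Nr4a1 (1.09, adjusted p = 0.0234). Runx1, with a log2 fold change of 0.14, and Cebpg, with one of -0.01, were not called. The calls lower numbered 3 without Con replicate 1 or without Fat replicate 1 and 2 without Fat replicate 2. The calls higher numbered 1 without Con replicate 1, 3 without Con replicate 2, 5 without Fat replicate 1 and 0 without Fat replicate 2. With the TPM values 1 gene was called in each direction.

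**Figure D4:**
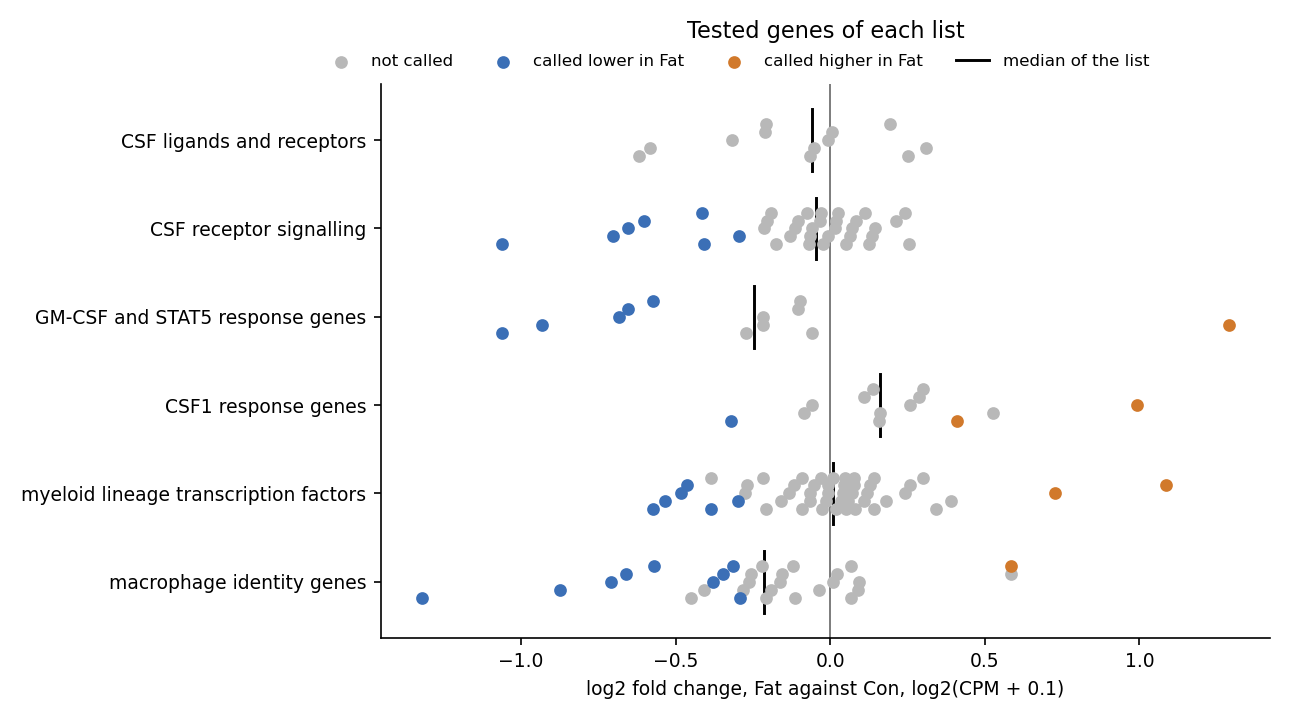
log2 fold change of Fat against Con for every tested gene of 6 lists, grey where not called, blue where called lower and orange where called higher, with a black bar at each list's median. No gene of the ligands and receptors is called, and the 7 called genes of CSF receptor signalling all lie below 0.

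The label of the cells was checked on 30 macrophage identity genes, all of which passed the filter. Lyz2, at 20347 to 28720 CPM, led them in every library. Itgam (CD11b) was at 2667 ± 97.1 CPM in Con and 2793 ± 138 CPM in Fat (SD, n = 2 each), and Adgre1 (F4/80), listed under its older symbol Emr1, was at 1178 ± 53.0 and 1032 ± 44.9 CPM, and neither passed the test (log2 fold change 0.07 for Itgam, with adjusted p = 0.698, and -0.19 for Adgre1, with adjusted p = 0.158). In this list 9 genes were called lower, 1 higher and 20 were not called, where 9.0% of all genes tested were called. The list's median log2 fold change was -0.22. The largest falls were those of the scavenger receptor gene Marco (log2 fold change -1.32, adjusted p = 0.00348), the Fc receptor gene Fcgr1 (-0.88, adjusted p = 0.0123), Ly86 (-0.71, adjusted p = 0.00514) and Aif1 (-0.66, adjusted p = 0.011), and C5ar1, the receptor for complement C5a, rose (log2 fold change 0.58, adjusted p = 0.00478). Without Fat replicate 2, 5 of these genes were called lower. With the TPM values 2 were. The list's summed CPM lay between 85703 and 85870 in Con and between 70975 and 75689 in Fat, most of it from lysosomal genes and Lyz2. Of 11 dendritic cell markers, 6 were tested and 0 were called by limma, and the list summed to 44.2 to 47.7 CPM in Con and 44.3 to 49.5 CPM in Fat. Of 15 lymphoid, erythroid and mast cell markers, 7 were tested and 0 were called, all 7 with estimates below 0.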

How the data were processed

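The authors prepared stranded polyA libraries, sequenced single reads of 75 bases and deposited CPM values, which carry a further scaling factor per library, and TPM values scaled by gene length. The submitters' processing notes name the build GRCm39, while the aligner, annotation and counting rules are not given in the sources used here. Samples were grouped by their labels.

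Whole reads were recovered from the deposited CPM steps in 100% of values (tolerance 0.01 reads). A floor of 3 reads equals 0.0732 to 0.0885 CPM and covers counting error only. Fat was compared with Con by limma 3.58.1 (R 4.3.3) on the log2(CPM + 0.1) scale (variance trend on, two-sided), with Benjamini-Hochberg adjustment over 12470 genes. An exact permutation test of 2 against 2 libraries cannot fall below 0.333. edgeR 4.0.16, DESeq2 1.42.0, a block for the replicate number, other filters, scalings and single libraries left out were alternatives. The limma fit with and without the block, both edgeR tests and DESeq2 were tried on simulated data. The other filters, scalings and left-out libraries were not. A fit with a library left out has a single library in that medium, so its calls take no spread from that medium. Shared sequence was sought with BWA 0.7.19 in GENCODE M21 transcripts, at steps of 5 bases and with 2 mismatches. Older symbols were matched through RefSeq (GRCm38.p6). Members and lists were chosen with earlier results of these data known. Some relatives of the members are not reported here. Named are all members, fixed relatives and every called gene of a list (the 4 largest changes each way where over 8 were called). Also named, after their values were seen, are Kitl, Kit, Il5ra, Stat5a, Stat5b, Cbl, Pik3cb, Lyz2, Cidec, Plin4, Car3 and Lep. The same holds for Lpl, Vcam1, Dcn, Mmp8, Mpo, Elane, Junb, overlapping genes and those under the filter.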

Additional observations from a re-analysis of the deposited data

How the results depend on the processing

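Against 1122 genes called by limma with CPM, 407 were called with the TPM values, 31 without the mean-variance trend, and 529 to 1131 when single libraries were dropped. The replicate number as a block gave 2520 calls, including all 1122, and 3 of 9 members called (Csf3r at adjusted p = 0.000126, Cebpb at 0.00105 and Csf2ra at 0.0014). That fit leaves 1 residual degree of freedom per gene, and the 2 pairs share only a number: their deviations correlated at 0.20 across the tested genes and at 0.339 across the 9760 genes with a mean of 5 CPM or more. edgeR's exact test and DESeq2 called 1 member each, and leaving out libraries gave 0 to 2. Without the trend, no gene of the 6 lists was called. Over 43 named genes, 369 of 427 values under the 10 other settings kept direction and call, 45 lost the call, 6 gained it and 7 changed sign, all 7 in genes not called. With each library left out, 130 of 172 kept both. The values that changed sign were -0.0014 (median-ratio scaling) and -0.0018 (DESeq2) for Spi1, -0.0016 (median-ratio scaling) for Il34, 0.0250 for Cebpg (TPM), and 0.104 (edgeR quasi-likelihood), 0.0954 (edgeR exact) and 0.0875 (DESeq2) for Cebpd. Left out in turn, the libraries gave log2 fold changes from -0.159 to 0.0288 for Csf2rb, -0.0807 to 0.0957 for Spi1, -0.261 to 0.0255 for Maf, -0.115 to 0.503 for Il3ra, -0.0859 to 0.0990 for Il34, -0.861 to 0.677 for Cebpd and -0.0560 to 0.0423 for Cebpg. The cause of these changes was not tested. Every member had at least 1238 reads in each library, while genes such as Csf2, with 2 to 20 reads, could not be tested at this depth.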

Other observations

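Csf2ra and Cebpb were not alone in standing high in Fat replicate 2. Of the genes in the lists, Junb was at 38.0 and 54.2 CPM in Con and at 43.5 and 98.4 CPM in Fat, and Cebpd was at 3.57 and 4.42 CPM in Con and at 2.14 and 6.42 CPM in Fat. Il3ra was at 19.7 CPM in Fat replicate 1 and at 30.3 CPM in Fat replicate 2. On the log2 scale, Fat replicate 2 exceeded Fat replicate 1 by 1.54 for Cebpd, 1.18 for Junb, 0.66 for Cebpb, 0.62 for Il3ra and 0.59 for Csf2ra. Among the genes whose mean reached 5 CPM, a gap as large in this direction was seen in 0.0512% for Junb, 0.348% for Cebpb, 0.471% for Il3ra and 0.533% for Csf2ra, while Cebpd lies under that mean and was not ranked. These 5 genes were set side by side after their values were seen, so the grouping is a description of 1 library, with no test. In the Con replicates the same genes differed by between 0.02 (Cebpb) and 0.51 (Junb) on the log2 scale.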
